A study of Mus musculus with 5 samples.

Results

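The activin, TGF-beta and SMAD genes described here are 10 genes of the transforming growth factor beta signalling family, taken by symbol from the 32531 genes listed for each library: the ligand genes Tgfb2, Inhba and Inhbb, the receptor genes Tgfbr1, Acvr1c and Acvr2a, and the signal transducer genes Smad2, Smad3, Smad4 and Smad7. All 10 were listed and all 10 passed the filter on low counts. RNA was sequenced in 2 cerebral cortex libraries and 3 libraries of the dentate gyrus, the hippocampal region that holds the granule cells. The adult mice of both groups were untreated and carried the Rbp4-Cre (KL100) driver together with Rosa26-LSL-EGFP/Rpl10a, named Rosa26-LSL-TRAP in the sample titles, an allele that tags ribosomes with EGFP once Cre has removed a stop signal. Tagged polysomes were pulled down with antibodies against EGFP, so the RNA of Cre-expressing cells is enriched, and all 5 libraries are such pull-downs. KL100 is a bacterial artificial chromosome line known for Cre in deep-layer cortical projection neurons and dentate granule cells, so the groups differ in cell type as well as in region. Whether each library is a separate animal is not stated, and the p-values therefore cover only how these samples varied, possibly for technical reasons.

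Ligands of this family are secreted dimers. Activin A is a dimer of the beta A subunit encoded by Inhba and activin B of the beta B subunit encoded by Inhbb. A ligand brings together type II receptors, such as those encoded by Acvr2a and Tgfbr2, and type I receptors, such as those encoded by Tgfbr1, Acvr1b and Acvr1c. The type I receptor then phosphorylates SMAD2 and SMAD3, which enter the nucleus with the shared partner SMAD4, while SMAD7 inhibits the receptor step. In the hippocampus, activin is known for effects on synaptic plasticity and on adult-born neurons.

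Gene counts summed to between 22600963 and 36837908 per library. Each of 8 granule cell markers favoured dentate gyrus, and each of 8 cortical projection neuron markers favoured cortex. These directions match the tissue labels, but the lists were chosen with earlier results of these data known. The counts are therefore no independent check of the labels. Among 6 general neuron markers, 2 favoured dentate gyrus and 3 favoured cortex. Of 8 interneuron markers, cortex had 5 at a higher level and dentate gyrus 1, Gad1. Summed levels were 897 to 908 CPM (counts scaled to library size, per 1e+06) in cortex and 186 to 223 CPM in dentate gyrus. Sst made up most of the cortex sum, at 700 and 641 CPM in cortex against 113, 80.8 and 72.4 CPM in dentate gyrus. Gad1 was at 26.6 and 41.0 CPM in cortex against 71.6, 57.2 and 64.8 CPM in dentate gyrus. Of 6 astrocyte markers, 2 (Aldoc and Aldh1l1) were higher in cortex, with summed levels of 126 to 152 CPM and 50.2 to 85.4 CPM. Most of the cortex sum was Aldoc, at 127 and 88.9 CPM in cortex against 18.1, 20.5 and 21.3 CPM in dentate gyrus. Aqp4, Gfap, Slc1a3 and Gja1 were not called and leaned to dentate gyrus, with log2 fold changes of 0.61, 1.55, 1.16 and 0.66. Among 6 oligodendrocyte markers 1 was higher in cortex, and none of the 3 tested of 5 microglia markers or the 6 tested of 7 vascular and meningeal markers was called. The summed oligodendrocyte levels were 221 to 293 CPM in cortex and 161 to 222 CPM in dentate gyrus, those of microglia 8.21 to 8.74 CPM and 0.911 to 5.29 CPM, and those of vascular and meningeal cells 49.7 to 54.0 CPM and 13.3 to 136 CPM. The endothelial gene Cldn5 was at 0 in both cortex libraries and in dentate gyrus replicate 1. Flt1, another endothelial gene, was present in all 5 libraries, at 4.70 and 6.11 CPM in cortex and 4.99, 14.0 and 7.32 CPM in dentate gyrus. The part of these other cells in the differences below was not tested. A pair of libraries stood apart from their group: cortex replicate 1 held the cerebellar gene Car8 at 411 CPM against 1.44 CPM in replicate 2, and dentate gyrus replicate 2 held the matrix gene Dcn at 114 CPM against 1.71 and 10.5 CPM in replicates 1 and 3. Results are also given without both where leaving them out bears on a value.

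Between dentate gyrus and cortex, Tgfb2, Acvr1c and Smad3 were higher in dentate gyrus and Smad2 was higher in cortex, while the other 6 genes were not called. Tgfb2 differed 12.3-fold, Acvr1c 3.41-fold and Smad3 2.12-fold, and Smad2 was 2.69-fold higher in cortex. In edgeR's quasi-likelihood F test, adjusted by Benjamini-Hochberg over all genes, 4 of the 10 members had an adjusted p under 0.05, where 21.3% of all 14136 tested genes did (10.5% upward in dentate gyrus, 10.8% upward in cortex). In 5 of the 10 the libraries of the tissues did not overlap, which is close to the 50.1% over all tested genes. The median log2 fold change was 0.58 for the members and 0.02 for all tested genes. Without cortex replicate 1 and dentate gyrus replicate 2, a setting added after the data were seen, the counts were again 3 and 1, against 10.6% of all genes. In these bulk pull-downs, fewer cells of a type and less RNA per cell cannot be told apart.

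The start regions of the genes higher in dentate gyrus are shown because these members moved the same way. RefSeq start windows on GRCm38.p6 were found for 7 of the 10 members. Each holds 250 bases before to 50 bases after an annotated start and is read 5′ to 3′ on the gene's strand. Capitals mark CAGAC, the core letters bound by SMAD proteins, and GGGCGG, the GC box, each with its reverse complement. The windows are chr1:186705940-186706239 on the minus strand for Tgfb2, chr9:63757945-63758244 on the minus strand for Smad3 and chr2:58357709-58358008 on the minus strand for Acvr1c.
Tgfb2: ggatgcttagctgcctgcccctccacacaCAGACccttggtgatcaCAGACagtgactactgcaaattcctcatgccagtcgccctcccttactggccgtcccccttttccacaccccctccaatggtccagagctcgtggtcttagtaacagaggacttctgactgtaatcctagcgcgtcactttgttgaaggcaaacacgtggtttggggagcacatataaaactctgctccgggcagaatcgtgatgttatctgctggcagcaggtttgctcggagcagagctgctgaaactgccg
Smad3: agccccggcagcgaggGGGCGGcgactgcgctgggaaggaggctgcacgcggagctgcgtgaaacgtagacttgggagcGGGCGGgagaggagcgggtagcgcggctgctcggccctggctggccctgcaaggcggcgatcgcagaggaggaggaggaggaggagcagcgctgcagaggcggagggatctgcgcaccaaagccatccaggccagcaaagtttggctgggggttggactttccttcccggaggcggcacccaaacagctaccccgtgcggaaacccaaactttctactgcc
Acvr1c: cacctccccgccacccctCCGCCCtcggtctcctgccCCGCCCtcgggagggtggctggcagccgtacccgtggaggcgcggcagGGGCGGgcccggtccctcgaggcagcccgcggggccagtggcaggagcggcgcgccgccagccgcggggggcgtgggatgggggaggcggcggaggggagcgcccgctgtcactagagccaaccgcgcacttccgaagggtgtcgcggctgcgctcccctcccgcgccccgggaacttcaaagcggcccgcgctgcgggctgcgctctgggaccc
The Tgfb2 window holds CAGAC at 2 places, starting 221 and 204 bases before the start site, and no GC box. The Smad3 and Acvr1c windows hold no CAGAC, and they hold 2 and 3 GC boxes. CAGAC or GTCTG occurred in 49.6% of all 32851 windows of this length and GGGCGG or CCGCCC in 35.7%. The palindromic SMAD element GTCTAGAC, found in 0.2% of all windows, and the cAMP response element TGACGTCA, in 1.8%, were in none of these 3 windows. Nor was the CAGCTG form of the E-box, found in 16.3% of all windows. Both strands were searched, with no overlap among matches. Other forms of the E-box were not searched, and the Tgfb2 window holds the form CACGTG. Acvr1c has another RefSeq start window further inside the gene, chr2:58324758-58325057, and counts per gene do not tell the starts apart.

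Among the ligand genes, Tgfb2, which encodes TGF-beta 2 (chromosome 1, 186622792 to 186705989, minus strand, GRCm38), had the largest difference of the members. The cortex libraries held Tgfb2 at 9.12 and 16.6 CPM (replicates 1 and 2), whereas the dentate gyrus libraries held it at 173, 153 and 147 CPM (replicates 1, 2 and 3, the order used throughout). Each dentate gyrus library was far above both cortex libraries. Mean CPM was 12.8 ± 5.27 (SD, n = 2) for cortex against 158 ± 13.8 (SD, n = 3) for dentate gyrus, or 3.62 as a log2 fold change (SE 0.28, edgeR adjusted p = 2.39e-05). With both libraries that stood apart left out, the log2 fold change of Tgfb2 was 3.28 (adjusted p = 0.000513, edgeR). Exons of Tgfb2 overlap an antisense gene over 124 bases, 2.1% of their length, and the strand setting of the counting is not given in the sources used here.

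Inhba, the activin beta A gene (chromosome 13, 16011851 to 16031621, plus strand), measured 35.8 and 15.9 CPM for cortex against 19.5, 18.2 and 24.3 CPM for dentate gyrus. The cortex libraries lay on either side of the dentate gyrus libraries. The log2 fold change was -0.32 (SE 0.38, edgeR adjusted p = 0.612), and it was 0.38 when cortex replicate 1 was left out, -0.83 when replicate 2 was, and 0.47 without both libraries that stood apart, none of them called. Inhba is also known as a gene induced by neuronal activity. Of 20 activity-regulated genes fixed as a list, 19 were tested, of which 15 favoured cortex and 1 dentate gyrus. Over all tested genes, 10.8% and 10.5% were called in these directions. The median log2 fold change of the list was -2.43, and 3 of the 19 were not called, nor was Inhba. Whether Inhba moves with the activity-regulated genes was not tested. Without both libraries that stood apart, 8 of those genes favoured cortex and 1 dentate gyrus.

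Inhbb, the activin beta B gene (chromosome 1, 119415465 to 119422248, minus strand), had few reads. It had 131 and 15 counts in the cortex libraries and 26, 0 and 17 counts in the dentate gyrus libraries, or 3.74 and 0.615 CPM against 0.717, 0 and 0.666 CPM. Only cortex replicate 1, where Car8 was also high (411 CPM), was above the rest. The log2 fold change was -2.22 (SE 1.53, edgeR adjusted p = 0.362), and without cortex replicate 1 it was -0.40 (adjusted p = 0.945, edgeR). It turned to 0.17 (adjusted p = 0.977, edgeR) without both libraries that stood apart. For the library with 0 counts, 3 counts would be 0.133 CPM, a limit that covers counting error only.

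**Figure D1:**
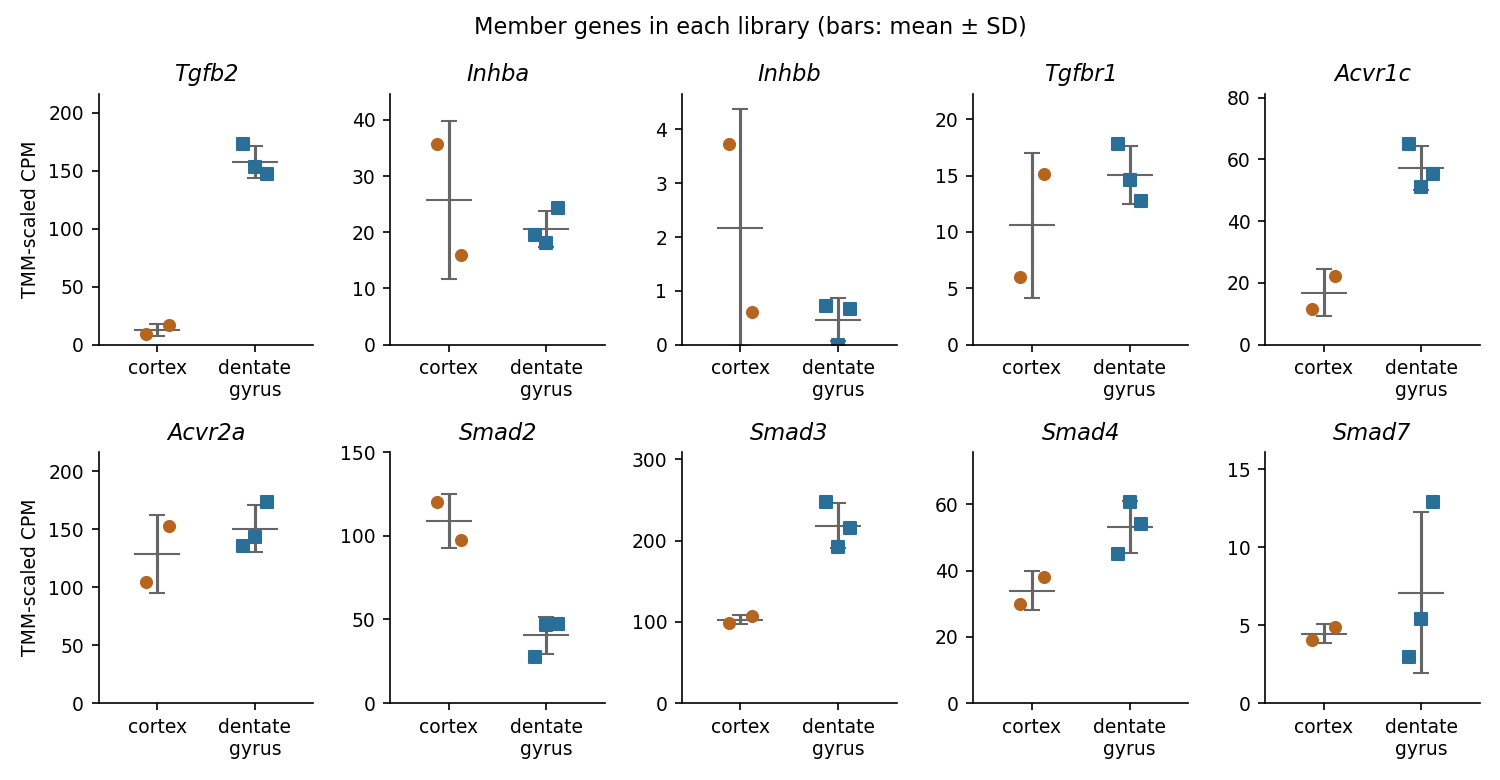
Level of each member gene in every library, in CPM scaled by trimmed mean of M values on a linear axis from 0; circles are the 2 cortex libraries, squares the 3 dentate gyrus libraries, and the bars the mean and SD. The tissues are apart for Tgfb2, Acvr1c, Smad2, Smad3 and Smad4, and for Inhba, Inhbb and Smad7 a single library lies far from the others.

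Among the receptor genes, Acvr1c, the gene of the type I receptor for nodal and some activins that is also called ALK7 (chromosome 2, 58267453 to 58357895, minus strand), was higher in dentate gyrus. Its level was 11.5 and 22.2 CPM for cortex, against 65.1, 51.1 and 55.4 CPM for dentate gyrus. The lowest dentate gyrus library was above the highest cortex library. Its log2 fold change was 1.77 (SE 0.32, edgeR adjusted p = 0.00371), and without both libraries that stood apart it was 1.45 (adjusted p = 0.0343, edgeR). An antisense gene shares 168 bases of its exons, 1.8%, and had 0 counts in 4 libraries and 8 in dentate gyrus replicate 3.

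Tgfbr1, the type I receptor for TGF-beta ligands (chromosome 4, 47353222 to 47414931, plus strand), was at 6.02 and 15.1 CPM in cortex and at 17.8, 14.6 and 12.7 CPM in dentate gyrus. Cortex replicate 2 lay among the dentate gyrus libraries. The log2 fold change was 0.51 (SE 0.46, edgeR adjusted p = 0.503) and ranged from 0.00 without cortex replicate 1 to 1.29 without cortex replicate 2, neither called. Acvr2a, a type II receptor for activins (chromosome 2, 48814109 to 48903269, plus strand), was at 104.8 and 153 CPM in cortex and at 135, 143 and 173 CPM in dentate gyrus. Its libraries overlapped between tissues, with a log2 fold change of 0.23 (SE 0.20, edgeR adjusted p = 0.485). Orc4 lies on the opposite strand over 446 bases of its exons, 7.8%.

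Among the SMAD genes, the paired transducers differed in opposite directions. Smad2, on chromosome 18, measured 120.0 and 97.4 CPM for cortex against 27.7, 46.7 and 47.1 CPM for dentate gyrus. Both cortex libraries were above every dentate gyrus library. The means were 109 ± 16.0 CPM (SD, n = 2) and 40.5 ± 11.1 CPM (SD, n = 3), a log2 fold change of -1.43 (SE 0.26, edgeR adjusted p = 0.00347). Smad3 (chromosome 9, 63646767 to 63757994, minus strand) measured 98.8 and 107 CPM for cortex against 247, 193 and 216 CPM for dentate gyrus. All 3 dentate gyrus libraries were above both cortex libraries. The means were 103 ± 5.90 CPM (SD, n = 2) and 218 ± 27.5 CPM (SD, n = 3), a log2 fold change of 1.09 (SE 0.16, edgeR adjusted p = 0.00107). Without both libraries that stood apart, the log2 fold changes were -1.38 for Smad2 (adjusted p = 0.0488, edgeR) and 1.12 for Smad3 (adjusted p = 0.0150, edgeR).

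Smad4, the shared partner of the other transducers, on chromosome 18, was at 29.9 and 38.1 CPM in cortex and at 44.9, 60.7 and 54.2 CPM in dentate gyrus. Its libraries did not overlap, but the difference was not called (log2 0.65, SE 0.25, edgeR adjusted p = 0.0934), and DESeq2 gave an adjusted p of 0.0475. Smad7, the inhibitory SMAD, also on chromosome 18, was at 4.02 and 4.88 CPM in cortex and at 2.98, 5.42 and 12.9 CPM in dentate gyrus. Dentate gyrus replicate 3 was well above its group and the other 4 libraries lay between 2.98 and 5.42 CPM. Its log2 fold change was 0.67 (SE 0.69, edgeR adjusted p = 0.560), and it was -0.10 without dentate gyrus replicate 3 (adjusted p = 0.955, edgeR).

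Levels of different genes were compared only per length, as scaled CPM divided by kilobases of annotated exon. In cortex the order from the highest was Acvr2a at 22.6, Smad3 at 18.6, Smad2 at 12.4, Smad4 at 9.16, Inhba at 4.04, Tgfb2 at 2.22, Acvr1c at 1.81, Tgfbr1 at 1.62, Smad7 at 0.985 and Inhbb at 0.511 CPM per kb. In dentate gyrus it was Smad3 at 39.4, Tgfb2 at 27.2, Acvr2a at 26.5, Smad4 at 14.3, Acvr1c at 6.16, Smad2 at 4.61, Inhba at 3.23, Tgfbr1 at 2.30, Smad7 at 1.57 and Inhbb at 0.108 CPM per kb. Tgfb2 stood in place 6 in cortex and place 2 in dentate gyrus, and Smad2 in places 3 and 6. In cortex, the neighbours Acvr2a and Smad3 overlapped between libraries, as did each pair of neighbours from Inhba down to Smad7. In dentate gyrus, neighbours overlapped for Tgfb2 with Acvr2a, Smad2 with Inhba, and Tgfbr1 with Smad7.

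**Figure D2:**
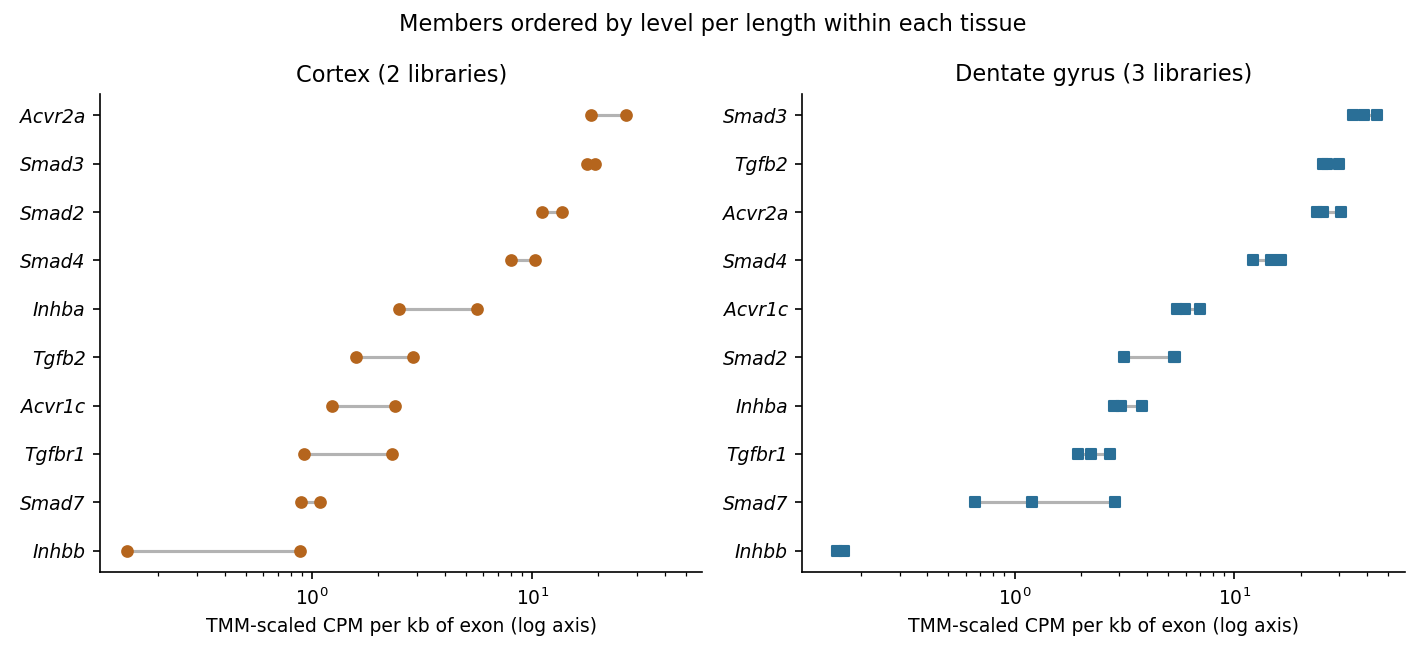
Members ordered by their mean level within cortex (left, 2 libraries) and dentate gyrus (right, 3 libraries), in scaled CPM per kb of exon on a log axis, with 1 point per library and a line over their range. Tgfb2 is in place 6 in cortex and place 2 in dentate gyrus, and Inhbb is the lowest in both; its library with 0 counts, dentate gyrus replicate 2, cannot be drawn on a log axis.

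Shares within a gene family do not depend on the scaling of a library. Per length, Smad3 made up 56.6% and 63.5% of Smad2 and Smad3 together for cortex, against 93.4%, 86.7% and 87.9% for dentate gyrus. The ratio of Smad3 to Smad2 per length was thus 1.30 and 1.74 in cortex and 14.1, 6.53 and 7.26 in dentate gyrus, with no overlap. The sum of both was 31.0 ± 0.756 CPM per kb in cortex (SD, n = 2) and 44.0 ± 3.87 CPM per kb in dentate gyrus (SD, n = 3). Tgfb2 made up 57.0% and 77.4% of the TGF-beta ligand genes Tgfb1, Tgfb2 and Tgfb3 in cortex and 98.9%, 96.5% and 95.6% in dentate gyrus. Tgfb3 was not called (log2 -0.36, SE 0.83, edgeR adjusted p = 0.816), and Tgfb1 was at 0 in both cortex libraries and at most 0.138 CPM in dentate gyrus.

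Among the type I receptor genes for activins and TGF-beta, Acvr1b (ALK4) was the most abundant in every library. Acvr1b was at 132 and 163 CPM in cortex and at 114, 94.9 and 144 CPM in dentate gyrus, and was not called (log2 -0.33, SE 0.20, edgeR adjusted p = 0.302). Acvr1c made up 3.84% and 5.74% of Tgfbr1, Acvr1b and Acvr1c together in cortex and 19.8%, 18.8% and 14.7% in dentate gyrus. Per length, Acvr1b was 24.3 and 15.5 times the level of Acvr1c for cortex, against 3.67, 3.90 and 5.48 times for dentate gyrus. The Tgfbr1 share, 2.87% and 5.58% in cortex and 7.70%, 7.66% and 4.80% in dentate gyrus, overlapped. Acvr2a made up between 96.9% and 99.3% of the sum of Acvr2a, Acvr2b and Tgfbr2 in every library of either tissue. Other type II genes, Bmpr2 among them, were not in this sum, so it gives no share of all type II receptors. Inhba made up 86.4% and 94.5% of both activin beta genes in cortex and 94.8%, 100% and 96.0% in dentate gyrus. Smad7 was the only inhibitory SMAD with counts in 4 of the libraries, and Smad6 was at 0.456 CPM in cortex replicate 1 and at 0 elsewhere. With 2 against 3 libraries the exact permutation test, two-sided by doubling the smaller tail, cannot give less than 0.2. The shares of Smad3, Tgfb2, Acvr1c and Inhba reached that value (adjusted p = 0.35 over 7 shares).

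**Figure D3:**
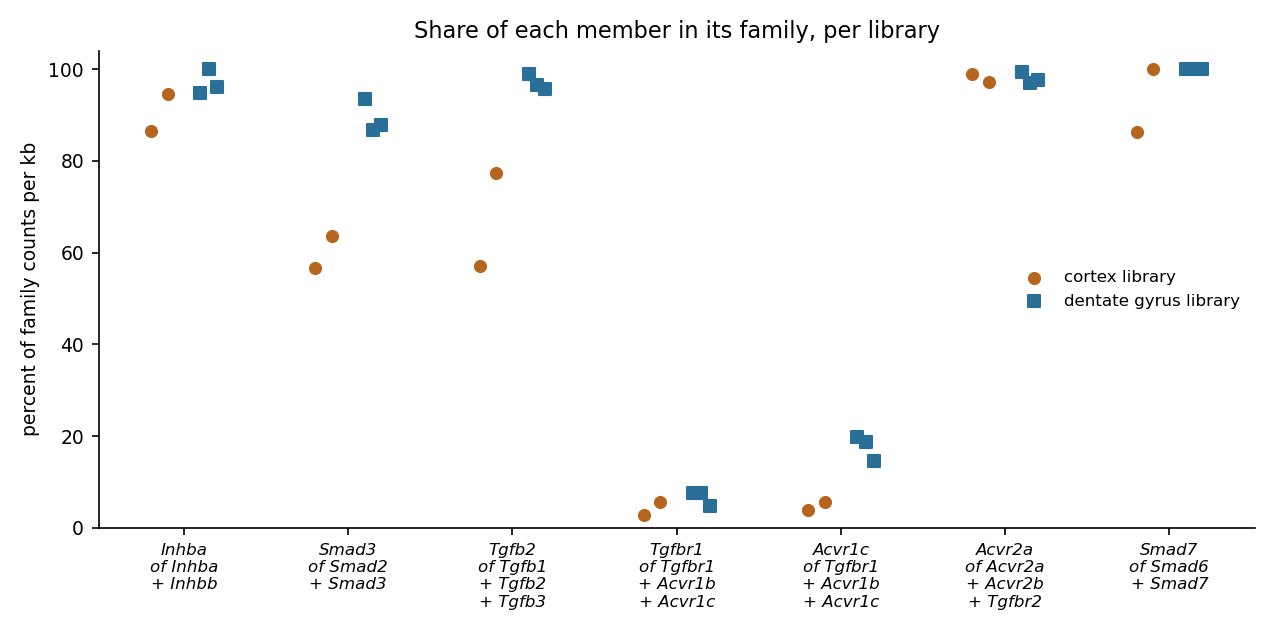
Share of each member in the summed counts per kb of its family, in percent, with 1 point per library (circles cortex, squares dentate gyrus). The shares of Smad3, Tgfb2 and Acvr1c are apart between tissues, whereas Acvr2a stays between 96.9% and 99.3% in all libraries.

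The rest of the pathway was read from lists of other family genes. Over 95 such genes, 67 were tested, of which dentate gyrus had 14 at a higher level and cortex 7, with a median log2 fold change of 0.21 and with 10.5% and 10.8% of all genes called in these directions. Without both libraries that stood apart the counts were 7 and 4. Of 28 other ligand genes 12 were tested, of which cortex had 2 at a higher level, both of the bone morphogenetic protein (BMP) group, and dentate gyrus 0. Bmp3 was at 24.7 and 41.8 CPM in cortex and at 0.0552, 1.47 and 0.117 CPM in dentate gyrus (log2 -6.00, SE 1.01, edgeR adjusted p = 0.00226). Bmp2 had 17.5 and 4.39 CPM for cortex against 0, 1.02 and 0.901 CPM in dentate gyrus, and its adjusted p by edgeR was 0.0414, or 0.382 when cortex replicate 1 was left out and 0.0682 when dentate gyrus replicate 3 was. Bmp3 alone was called without both libraries that stood apart. The median over the ligand list was -0.80.

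Of 13 other receptor genes, 10 were tested, and all 5 called genes favoured dentate gyrus. Over all tested genes, 10.5% were called toward dentate gyrus and 10.8% toward cortex. The list median was 1.19 on the log2 scale. Bambi, a pseudoreceptor that lacks the kinase domain, was at 0.285 and 0.821 CPM in cortex and at 7.92, 13.0 and 15.6 CPM in dentate gyrus (log2 4.48, SE 0.72). Tgfbr3, the co-receptor betaglycan that presents TGF-beta 2 to the signalling receptors, was at 7.16 and 3.94 CPM in cortex and at 35.5, 24.5 and 27.9 CPM in dentate gyrus (log2 2.40, SE 0.40, edgeR adjusted p = 0.00219). The type I receptor gene Acvr1 had a log2 fold change of 1.77 (SE 0.33). The BMP type II receptor gene Bmpr2, at 1144 ± 16.3 and 1535 ± 73.6 CPM (SD, n = 2 and 3), had one of 0.42 (SE 0.09, edgeR adjusted p = 0.00841), with an adjusted p of 0.0748 without cortex replicate 2. Without both libraries that stood apart, 3 receptor genes were higher in dentate gyrus.

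Smad5, a transducer of the BMP branch, was the only called gene among 3 tested other SMADs. Smad5 was at 36.8 and 32.9 CPM in cortex and at 63.4, 62.6 and 63.6 CPM in dentate gyrus (log2 0.86, SE 0.21, edgeR adjusted p = 0.0166), with an adjusted p of 0.0606 when cortex replicate 1 was left out and 0.128 when replicate 2 was, and it was not called without both libraries that stood apart. The median over 15 tested extracellular antagonists and latency proteins was 0.42. Of these, 1 was higher in dentate gyrus and 1 in cortex, beside 10.5% and 10.8% of all tested genes. The former was the integrin gene Itgb8, whose product takes part in activating latent TGF-beta (6.53 and 7.38 against 22.2, 29.4 and 35.5 CPM, log2 2.06, SE 0.36). Its edgeR adjusted p of 0.00272 was 0.0536 without both libraries that stood apart. The other was Bmper, a BMP-binding protein gene, at 5.67 and 0.574 CPM in cortex and 0 counts in dentate gyrus, at least 87.8-fold higher against a floor of 3 counts over the dentate gyrus libraries. Cortex replicate 1 gave most of that value, and without that library Bmper did not pass the filter on low counts and was not tested. Fst, which encodes the activin antagonist follistatin, was at 1.11 ± 1.17 CPM (SD, n = 2) for cortex against 0.877 ± 0.789 CPM (SD, n = 3) for dentate gyrus, not called, and was chosen after its values were seen.

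Of 19 tested SMAD partners and modifiers, 7 favoured dentate gyrus and 1 cortex, with a median of 0.45. Over all tested genes, 10.5% and 10.8% were called in these directions. Ski, a corepressor that binds SMAD proteins, had 290.1 ± 26.1 CPM (SD, n = 2) for cortex against 661 ± 68.2 CPM (SD, n = 3) for dentate gyrus (log2 1.19, SE 0.13). Zeb2, a SMAD-binding transcription factor gene, had a log2 fold change of 2.13 (SE 0.10). The ubiquitin ligase gene Nedd4l had one of 1.18 (SE 0.11) and Rnf111, which encodes the ubiquitin ligase Arkadia, one of 1.06 (SE 0.21), with an edgeR adjusted p of 0.0512 for Rnf111 without cortex replicate 2. The 1 gene higher in cortex, named after its values were seen, was the ubiquitin ligase gene Smurf1 (log2 -1.22, SE 0.33). Its edgeR adjusted p was 0.0276, with 0.0510 and 0.202 when cortex replicate 1 or 2 was left out and 0.0681 when dentate gyrus replicate 3 was. Without both libraries that stood apart, 4 genes favoured dentate gyrus and 0 cortex.

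Of 14 genes known as transcriptional targets of the family, 9 were tested, with a median of -1.30. Of these, 3 favoured cortex and 1 dentate gyrus, beside 10.8% and 10.5% of all tested genes. The counts were 3 and 0 without both libraries that stood apart, but not of the same genes: there Id3 was no longer called (edgeR adjusted p = 0.144) and Ctgf, a matricellular protein gene, was (log2 -7.37, adjusted p = 0.0410), and Skil was no longer called in dentate gyrus. Pmepa1, which encodes a feedback inhibitor of SMAD signalling, was at 87.2 and 83.3 CPM in cortex and at 38.3, 37.7 and 27.6 CPM in dentate gyrus (log2 -1.30, SE 0.22, edgeR adjusted p = 0.00253). Id2, a helix-loop-helix gene of the BMP response, was at 42.9 and 33.3 CPM against 7.92, 11.02 and 7.05 CPM (log2 -2.14, SE 0.33). Id3, of the same group, had a log2 fold change of -5.59 (SE 1.39) at 3.26 ± 0.378 CPM in cortex (SD, n = 2), with an edgeR adjusted p of 0.0181 that was 0.0884 or 0.111 when cortex replicate 1 or 2 was left out. Skil, a corepressor gene in the same family as Ski that is also counted among the partners, was higher in dentate gyrus (log2 0.59, SE 0.14, edgeR adjusted p = 0.0144), with an adjusted p of 0.111 when cortex replicate 1 was left out and 0.0578 when dentate gyrus replicate 3 was.

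**Figure D4:**
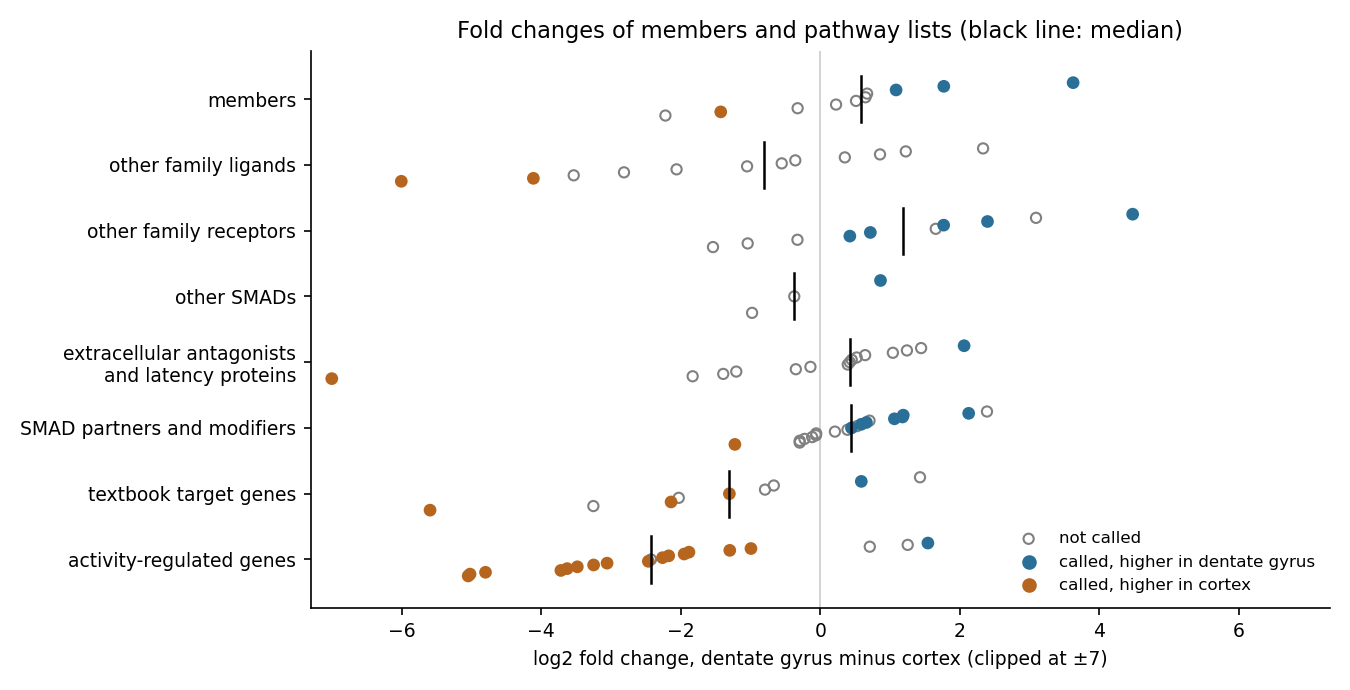
Log2 fold change of every tested gene, dentate gyrus minus cortex, for the members and each pathway list; filled points were called by edgeR, open points were not, and the black line is the list's median. Among the members 3 called genes lie to the right and 1 to the left; Bmper, with 0 counts in dentate gyrus, lies beyond the axis and is drawn at its edge.

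The genes with profiles most like those of the most strongly called members were found over the 5 libraries by the Euclidean distance between centred log2 CPM values. For Tgfb2 these were Mycl, a MYC family transcription factor gene (distance 0.31), the chromatin remodelling gene Cecr2 (0.40) and the syntaxin-binding protein gene Stxbp6 (0.43), which is also on the list of granule cell markers. Mycl was at 2.31 and 4.88 CPM in cortex and at 47.9, 38.8 and 48.4 CPM in dentate gyrus. For Smad2 they were the carboxypeptidase gene Cpe (0.14), the RNA exosome gene Exosc4 (0.15) and the nuclear receptor gene Nr4a3 (0.17), which is also on the activity-regulated list. Cpe was at 416 and 365 CPM in cortex and at 97.5, 159.7 and 155 CPM in dentate gyrus. The distances describe these libraries, which share 1 contrast of tissues.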

How the data were processed

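The 5 deposited tables hold raw read counts per gene symbol, which the authors made, per the submitters' processing notes, with STAR 2.0.0e and HTSeq on mm10. The sources used here do not give the annotation or the strand setting. Rows that name no gene, 40.2% to 44.6% of each library, were left out. Counts were tested with edgeR 4.0.16 in R 4.3.3 (TMM scaling, filterByExpr, quasi-likelihood F test on tissue, dentate gyrus minus cortex, called at an adjusted p under 0.05). SE is the absolute log2 fold change divided by the root of F. Shares used scipy 1.17.1 and figures matplotlib 3.10.9. GENCODE M21 gave exon lengths and gene positions on GRCm38, the build of mm10, whose exons may differ from those counted.

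Alternatives were other scalings and filters, a replicate block, robust dispersion, DESeq2 1.42.0, limma 3.58.1 voom and leaving out each library. The procedure was also run on simulated data. The outcome is not given here and is no support for the calls above. Members and lists were chosen with earlier results of these data known. Named genes were the members, their family genes, up to 4 called genes per list with the smallest adjusted p (activity-regulated genes are given as counts only), and 3 nearest profiles for the strongest member in each direction.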

Additional observations from a re-analysis of the deposited data

How the results depend on the processing

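Tgfb2, Acvr1c, Smad3 and Smad2 were called in the same direction under the main test and all 14 alternatives, with log2 fold changes of 3.26 to 4.08, 1.37 to 2.29, 0.97 to 1.16 and -1.60 to -1.23. Of the other members, Smad4 alone was called under any alternative, by DESeq2, which made 4 members higher in dentate gyrus. Over all genes, 1481 calls favoured dentate gyrus and 1528 cortex. Leaving out 1 library each gave 908 to 1276 and 913 to 1499, and leaving out both libraries that stood apart gave 771 and 807. Among pathway genes, 11 to 14 calls favoured dentate gyrus and 3 to 8 cortex when 1 library was left out, and 7 and 4 without both. With the replicate block 2237 genes were called in place of 3009, with the same 4 members and with 10 and 5 pathway genes. Cortex has no replicate 3, so the block also takes dentate gyrus replicate 3 out of the tissue contrast. This setting ended the calls of Smad5, Skil, Id3, Bmp2, Smurf1 and Nr4a3 among the named genes. The numbers were not shown to pair libraries: the difference between replicates 1 and 2 correlated at -0.01 across genes between tissues.

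The small difference in the Acvr2a share, -0.185 percentage points, changed sign when cortex replicate 1 (0.692), dentate gyrus replicate 2 (0.327) or both of these (1.204) were left out. Over single libraries left out it ran from -1.06 to 0.692. The Smad7 share difference of 6.90 points was 0 without cortex replicate 1 and without both, and 0 to 13.8 over single libraries left out. The other differences kept their sign in every alternative run. That of Inhba, 6.46 points, was 2.43 without cortex replicate 1, 10.49 without replicate 2 and 0.899 without both libraries that stood apart. That of Tgfbr1, 2.50, was 1.14, 3.85 and 0.673 in the same settings, and that of Tgfb2, 29.8, was 19.7, 40.02 and 19.9. That of Acvr1c, 13.0, was 21.0 with no length correction, and that of Smad3, 29.3, ran from 25.8 to 35.4. The causes were not tested. Inhbb had at most 131 counts in a library.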
